A study of Mus musculus with 9 samples.

Results

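XBP1 binding in mouse liver 48 h after partial hepatectomy was compared with binding 48 h after a sham operation, using 2 lists of peaks from chromatin immunoprecipitation and sequencing (ChIP-seq), a method that recovers the DNA held by a protein. All peaks of both lists were taken, 7212 after hepatectomy and 4622 after sham, which made 11834 of the 64078 peaks in the 8 lists of the series. Both livers were wildtype C57Bl6-J, operated at 8 weeks of age, and chromatin was precipitated with the antibody anti-XBP1 M-186. Partial hepatectomy removes lobes so that the remaining liver regrows, and the sham operation opened the abdomen and exposed the lobes without removing them. Each condition had 1 library, and the labels do not say whether it came from 1 animal or a pool, nor whether these livers had received the control virus and clodronate liposomes named in the protocols. There was therefore no test between conditions. The intervals given below are 95% Clopper-Pearson intervals, and they cover counting error only. The files hold no read numbers, so the depth behind the peaks is unknown, and a shallower library and fewer bound sites cannot be told apart. Whole liver was used, so fewer cells of a type and less binding per cell cannot be told apart either.

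XBP1 acts in the unfolded protein response, the program that matches the folding capacity of the endoplasmic reticulum (ER) to the load of secreted proteins. When unfolded proteins gather, the ER sensor IRE1 cuts Xbp1 mRNA, and the spliced form encodes an active factor that binds the promoters of ER chaperones, of the ER-associated degradation machinery (ERAD) and of the translocation and transport apparatus. Hepatocytes secrete most plasma proteins and depend on this system.

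The promoters where the strongest peaks of both lists lay are shown first, since the order of these loci is the main measure compared below. No mm9 genome was used here, so each is the RefSeq promoter of the gene in GRCm38.p6, matched by symbol, over the 250 bases before the gene start, read 5′ to 3′ on the gene's own strand. Hspa5 (chr2:34771840-34772089, plus strand), Hsp90b1 (chr10:86705445-86705694, minus), Canx (chr11:50325674-50325923, minus) and P4hb (chr11:120573254-120573503, minus) were among the 10 highest-scoring loci of at least 1 of the lists. Syvn1 (chr19:6046326-6046575, plus) represents ERAD, and Bax (chr7:45466899-45467148, minus) is the named gene whose rank differed most between the lists. Capitals mark 3 motifs on either strand, which are parts of the ER stress element and of known XBP1 motifs. The first is CCAAT, which reads ATTGG when it lies on the opposite strand. The next is CCACG, which then reads CGTGG, and the last is ACGTG, which then reads CACGT. The motifs CCACG and the reverse of ACGTG can overlap, as in the P4hb window, and a palindromic site such as that of Bax holds ACGTG on both strands.
Hspa5: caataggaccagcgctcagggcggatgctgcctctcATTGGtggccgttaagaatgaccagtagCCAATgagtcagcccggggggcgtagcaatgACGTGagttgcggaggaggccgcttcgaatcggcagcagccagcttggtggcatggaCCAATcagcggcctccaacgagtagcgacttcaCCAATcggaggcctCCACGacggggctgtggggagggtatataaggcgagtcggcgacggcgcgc
Hsp90b1: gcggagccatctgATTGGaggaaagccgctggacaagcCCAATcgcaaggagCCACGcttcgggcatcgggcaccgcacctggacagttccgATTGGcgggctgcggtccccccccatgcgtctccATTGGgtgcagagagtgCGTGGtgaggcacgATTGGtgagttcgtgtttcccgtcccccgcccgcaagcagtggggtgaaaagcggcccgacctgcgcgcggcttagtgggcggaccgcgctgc
Canx: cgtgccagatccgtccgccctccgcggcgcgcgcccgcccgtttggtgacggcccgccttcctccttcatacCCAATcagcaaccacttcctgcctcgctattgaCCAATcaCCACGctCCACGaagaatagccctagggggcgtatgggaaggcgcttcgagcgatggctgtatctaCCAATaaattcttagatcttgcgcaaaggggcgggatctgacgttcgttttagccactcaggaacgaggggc
P4hb: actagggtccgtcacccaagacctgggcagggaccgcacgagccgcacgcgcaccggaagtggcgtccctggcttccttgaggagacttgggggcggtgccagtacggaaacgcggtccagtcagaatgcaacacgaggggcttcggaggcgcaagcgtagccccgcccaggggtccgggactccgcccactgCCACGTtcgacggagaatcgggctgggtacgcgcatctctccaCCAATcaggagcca
Syvn1: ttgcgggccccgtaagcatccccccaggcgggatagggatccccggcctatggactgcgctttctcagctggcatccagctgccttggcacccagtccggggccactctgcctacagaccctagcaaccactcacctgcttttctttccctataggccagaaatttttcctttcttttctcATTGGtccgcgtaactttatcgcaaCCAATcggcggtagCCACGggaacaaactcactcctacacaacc
Bax: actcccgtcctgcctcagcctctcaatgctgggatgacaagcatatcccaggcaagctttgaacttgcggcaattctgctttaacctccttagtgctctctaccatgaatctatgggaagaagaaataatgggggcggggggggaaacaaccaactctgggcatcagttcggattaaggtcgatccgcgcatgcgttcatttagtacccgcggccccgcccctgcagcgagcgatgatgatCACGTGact

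The ER stress element, CCAAT and CCACG separated by 9 bases on either strand, was found in the windows of Hspa5, Hsp90b1 and Syvn1. It also occurred in Canx, where a second CCACG lies between the parts of the element. The Hsp90b1 window held 2 such elements, 1 on each strand. P4hb had a CCAAT and a CCACG in another spacing, and Bax had only ACGTG, once on each strand. Of 60 named genes that could be placed on mm9 as described below, 50 were in the promoter table. Among the 31 of these with a peak within 1 kb of the start in both 48 h lists, 23 windows held CCAAT, 19 held CCACG, 12 held ACGTG and 9 held the spaced element. The shares over all 32851 promoters of the table were 33.8%, 28.3%, 16.6% and 0.113%. The genes of ER folding, degradation and translocation supplied all 9 windows with the spaced element, those of Calr, Canx, Creld2, Derl3, Dnajc3, Hsp90b1, Hspa5, Pdia6 and Syvn1. Among 15 placed genes without a start peak in either list, 7 held CCAAT, 4 held CCACG, 1 held ACGTG and 0 held the spaced element. No placed ER gene lacked a start peak, so these 15 genes and the 31 differ in the kind of gene. The ER genes were named as known targets of XBP1, so these counts do not link peaks to motifs. TGACGTG, the longer XBP1 motif, was found in 1 of the 31 windows and in 1.65% of all promoters. A match describes the letters of the window and is not a measured binding site.

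The strongest sites of both lists were the same places, and the lists parted among weak peaks. A peak counted as shared where it overlapped a peak of the other list by at least 1 bp. Shared peaks made up 47.1% of the hepatectomy list (3394 of 7212, interval 45.9 to 48.2%) and 72.5% of the sham list (3349 of 4622, interval 71.1 to 73.7%). Peaks were ranked within each list by the score the authors deposited, which was read as −log10 of the peak caller's p-value. All of the 100 highest-scoring peaks of either list had a counterpart. Among the 1000 highest, 894 hepatectomy peaks and 971 sham peaks did. By deciles of rank, the overlapped share of the hepatectomy list went from 93.1% (91.0 to 94.8%) in the first to 22.9% (19.9 to 26.1%) in the last. That of the sham list went from 99.6% (98.4 to 99.9%) to 48.1% (43.4 to 52.7%), and every decile of the sham list had the higher share. The list overlapped was longer in the second direction, which raises the share. With the 4622 highest-scoring hepatectomy peaks only, the shares were 57.9% and 57.8%.

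**Figure D1:**
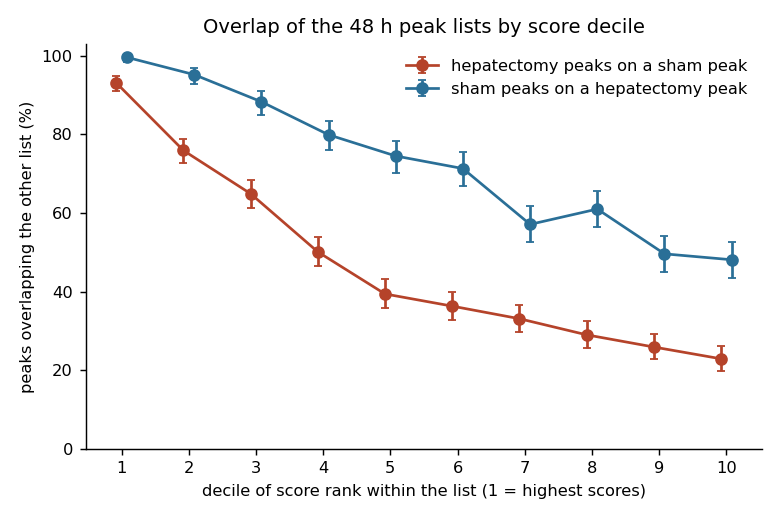
Share of peaks that overlap the other 48 h list (y axis, percent) by decile of score rank within the list (x axis, 1 holds the highest scores), for hepatectomy (red) and sham (blue) with 95% Clopper-Pearson intervals as bars. Hepatectomy falls from 93.1% to 22.9% and sham from 99.6% to 48.1%.

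The direction of the difference in peak number depended on the score required. The ratio of hepatectomy to sham peaks was 1.56 over all peaks, 1.37 for peaks with a score of at least 10 and 0.961 for a score of at least 20 (1443 against 1502 peaks). The scores of the lists need not share a scale, with maxima of 225.5 and 773.19, so an equal score may not mark equal strength. The excess over all peaks was spread over the genome, with a ratio above 1 on 20 of 21 chromosomes. On chromosome Y each list had 1 peak.

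The genes that XBP1 is known to serve in ER protein folding ranked at the top of both lists. No mm9 annotation was used here, so gene starts were taken from general knowledge of mm9 and a gene was placed only where basal liver or a 6 h library had a peak within 1 kb of that start. This choice of genes favours bound ones, so its counts describe the named genes only. Of the genes of ER chaperones and folding enzymes, ERAD, and translocon and traffic, 26 were placed. All 26 had a peak within 1 kb of the start in both 48 h lists, beside 47.1% and 72.5% of all peaks with a counterpart. Their best peaks all lay in the first decile of rank, where 93.1% and 99.6% of peaks had a counterpart. These shares count 48 h peaks and not genes placed by basal or 6 h peaks, so the measures are unlike. Even so, the count is close to what peaks of such rank show in general. Their ranks ran from 1 to 509 after hepatectomy (median 94.5) and from 1 to 212 after sham (median 64.5).

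Hsp90b1, the ER form of HSP90, had the highest score of the sham list and rank 9 after hepatectomy. Hspa5, the chaperone BiP, ranked 5 after hepatectomy and 2 after sham. Both loci stayed within the first 10 peaks of each list. Canx, the lectin chaperone calnexin, ranked 6 and 3, at chr11:50138681-50139889 and chr11:50138810-50139844 (mm9). P4hb, a protein disulfide isomerase, ranked 1 after hepatectomy (chr11:120433967-120435226, mm9) and 21 after sham. Ssr3, a subunit of the translocon-associated complex, ranked 7 and 23. P4hb and Ssr3 thus stood among the first 10 after hepatectomy and lower after sham, and Xbp1 stood the other way round, at rank 40 after hepatectomy and 7 after sham. The luminal chaperones Hyou1 (ranks 24 and 15) and Calr (26 and 35), the latter encoding calreticulin, followed closely.

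The other folding genes stood somewhat lower in the hepatectomy list. Pdia3, a disulfide isomerase that works with calnexin and calreticulin, ranked 197 after hepatectomy and 46 after sham. Dnajb11, a cochaperone of BiP, ranked 149 and 61, and Dnajc3, another, 216 and 100. Sdf2l1, an ER protein that associates with BiP cochaperones, ranked 455 and 136. Dnajb9 (69 and 50), Pdia6 (78 and 49), Pdia4 (119 and 73) and Creld2 (89 and 41) differed less. These lists differ in length, so both were also ranked over the same 3338 shared sites, and ranks were turned into percentiles in which 100 is the highest score. On that scale the 14 chaperone and folding genes lay between 86.8 and 99.99 after hepatectomy, and the difference between the lists ran from -9.14 points at Sdf2l1 to 0.599 points at P4hb.

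ERAD returns misfolded proteins to the cytosol for destruction, and its 7 genes were placed high in both lists with no common direction. Syvn1, the ubiquitin ligase HRD1, ranked 37 after hepatectomy and 80 after sham, and its partner Sel1l ranked 330 and 147. Edem1, which selects misfolded glycoproteins, ranked 100 and 113, and Herpud1 125 and 87. The derlins, membrane proteins of the same complex, ranked 104 and 130 (Derl1), 119 and 192 (Derl2), and 269 and 212 (Derl3). Among genes of translocation and traffic, Sec61a1, the channel subunit, ranked 509 and 201, and Sec61b, a small channel subunit, 65 and 47. Sec31a, a coat protein of vesicles leaving the ER, ranked 41 and 68, and Ssr1 261 and 167. In percentiles over the shared sites, 18 of the 26 ER genes stood lower after hepatectomy and 8 higher, with a median difference of 1.03 points in either direction. The median over all shared sites was 15.5 points, and over the upper tertile of ranks 8.18 points. The ER genes stood close to the top of the percentile scale, which bounds their differences, so these medians are not a like comparison.

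Regulators of the response were also bound in both livers. Atf4, the factor induced by the PERK branch, ranked 60 after hepatectomy and 122 after sham. Atf6, the sensor of the third branch, ranked 134 and 278, and Ddit3, which encodes CHOP, 375 and 326. Ppp1r15a, which restores translation after stress, was the weakest of the 5 placed, at ranks 2380 and 1313. Its percentile was 44.1 after hepatectomy and 61.8 after sham. With Xbp1 itself, the 5 placed regulators had a start peak in both lists, beside 47.1% and 72.5% of all peaks with a counterpart. All but Ppp1r15a lay in the first decile of rank, where 93.1% and 99.6% of peaks had a counterpart. As for the ER genes, these shares count peaks and not placed genes. Ern1, which encodes IRE1, and Trib3 had no peak within 5 kb of their starts in either 48 h list and were not placed, since a gene was placed only by a peak.

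**Figure D2:**
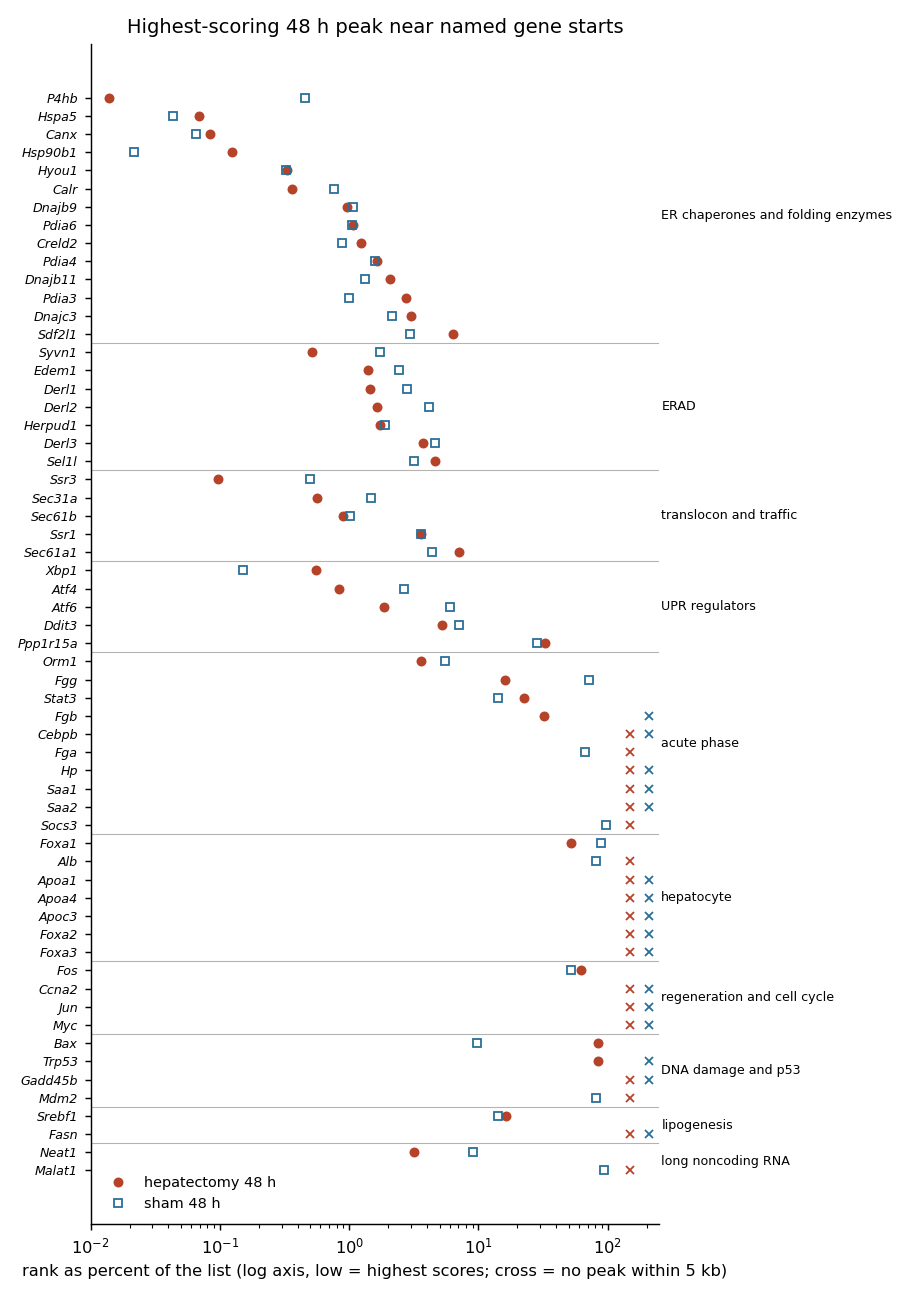
Rank of the highest-scoring peak within 5 kb of each named gene start, as a percent of its list (x axis, log scale, low values are the highest scores), for hepatectomy 48 h (filled red circles) and sham 48 h (open blue squares), with crosses for no peak, genes grouped by list. ER genes lie at the left in both lists, up to Sec61a1 at 7.06% after hepatectomy and Derl3 at 4.59% after sham, while most acute phase, hepatocyte and cell cycle genes lie at the right or have no peak. The ER genes all had a start peak in basal liver. Nearly all acute phase, hepatocyte and cell cycle genes were placed by 6 h peaks alone, so the groups are not a like comparison.

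Acute phase genes, which encode plasma proteins and regulators that the liver makes in inflammation, had few 48 h peaks at their starts. All 10 had a start peak in both 6 h libraries, but 9 had none in basal liver and so were placed by the 6 h lists alone, and no contrast between 6 h and 48 h is drawn from them. At 48 h only Stat3, the factor that carries interleukin 6 signals, had a start peak in both lists, at rank 1628 after hepatectomy and 658 after sham. Fga, which encodes a fibrinogen chain, had one after sham only (rank 3096), and the other 8 had none in either. Within 5 kb, Fgg and Orm1 also had peaks in both lists, Fgb after hepatectomy only (rank 2325) and Socs3 after sham only (rank 4472). Saa1, Saa2, Hp and Cebpb had none in either. The peak near Fgg, the gene of another fibrinogen chain, ranked 1160 after hepatectomy (chr3:82806922-82807378, mm9) and 3337 after sham (chr3:82806896-82807364). Its percentile over the shared sites was 69.3 after hepatectomy and 19.6 after sham, a difference of 49.7 points. At 6 h it ranked 1140 after hepatectomy and 1117 after sham. Fgg was the only named gene at least 25 points higher after hepatectomy, beside 16.0% of all shared sites. The peak near Orm1, which encodes orosomucoid, had the same percentile of 92.3 in both lists. Fga, Fgb and Fgg are neighbours on chromosome 3, and their peaks are separate sites.

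Among genes of DNA damage and p53, Bax differed most of all named genes. Bax encodes a pore-forming protein that starts apoptosis from the mitochondrion and is a p53 target. Its start peak ranked 6062 of 7212 after hepatectomy (chr7:52722116-52722351, mm9, 236 bp wide) and 449 of 4622 after sham (chr7:52721923-52722420, 498 bp). The hepatectomy peak had a score of 8.3, low in a list with a minimum of 5.08 and a median of 12.67. The percentile was 5.83 after hepatectomy and 86.4 after sham, a difference of -80.5 points. It was the only named gene at least 25 points higher after sham, beside 15.7% of all shared sites. The same site ranked 314 in basal liver, 489 after hepatectomy at 6 h and 2305 after sham at 6 h, so the low rank was seen in the 48 h hepatectomy list and the order at 6 h was the opposite. Trp53, which encodes p53, had a start peak after hepatectomy only, with the same score of 8.3 and so the tied rank 6062. Mdm2, the ubiquitin ligase of p53, had one after sham only, at rank 3787, and Gadd45b had none in either. Trp53, Mdm2 and Gadd45b had no start peak in basal liver and were placed by the 6 h lists alone. Cdkn1a, which was not placed, had a peak within 5 kb after hepatectomy only, also at rank 6062. The peaks of Trp53 and Mdm2 both lay in the lower part of their lists, where most peaks of the hepatectomy list had no counterpart.

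No placed immediate early, cell cycle, hepatocyte, lipid synthesis or long noncoding RNA gene had a start peak in basal liver. All were placed by the 6 h lists alone, so no contrast between 6 h and 48 h is drawn from them. Of the placed immediate early and cell cycle genes, Myc, Jun and Ccna2 had no 48 h peak within 5 kb of the start. Fos had a start peak in both lists, at ranks 4461 and 2398. Ccnd1 and Pcna were not placed, but each had a peak within 5 kb in both lists. These peaks ranked 575 and 532 near Ccnd1, and 3231 and 1672 near Pcna. Ccnb1, Cdk1 and Mki67, also not placed, had none. Among 7 placed hepatocyte genes, the liver factor Foxa1 had a start peak in both (ranks 3770 and 4119), Alb, the albumin gene, had a peak within 5 kb after sham only (rank 3787), and Apoa1, Apoa4, Apoc3, Foxa2 and Foxa3 had none. Srebf1, a regulator of lipid synthesis, had a peak within 5 kb in both lists (ranks 1179 and 658) and Fasn in neither. Neat1, a nuclear long noncoding RNA, had a start peak in both lists, and its best peaks within 5 kb, which lay further out, ranked 228 and 420. Malat1 had a start peak after sham only (rank 4300). Over all 60 placed genes, 36 had a start peak in both lists, 1 after hepatectomy only, 3 after sham only and 20 in neither. The rule for placement shapes these counts, which describe the named genes only. The 17 genes not placed were Manf, Sec23b, Srp54b, Ern1, Trib3, Afp, Ttr, Hnf4a, Egr1, Ccnd1, Ccnb1, Cdk1, Mki67, Pcna, Cdkn1a, Gadd45a and Scd1. Of these, Manf, Sec23b, Srp54b, Ttr and Egr1 had no start assigned, so whether they had peaks is unknown.

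At sites shared by both lists the score ranks were related but far from identical. The 3338 shared sites included 3274 with 1 peak in each list, 53 where several hepatectomy peaks fell in 1 sham peak, and 11 of the reverse kind. Spearman's rho between both rankings was 0.595 over the 3338 sites, given as a description since sites of the same libraries are not replicates. Within the 450 sites that were in the highest 10% of either list it was 0.539, and 227 sites were in the highest 10% of both. A difference of at least 25 percentile points was met by 535 sites in favour of hepatectomy (16.0%) and by 523 in favour of sham (15.7%). Ranking the same sites in both lists balances gains and losses, so near-equal counts are no result. Among the 450 sites in the highest 10% of either list, 33 met it in favour of hepatectomy and 15 in favour of sham. The median difference was 8.18 points in the upper tertile of ranks, 24.5 in the middle and 16.1 in the lower, and the ends of the percentile scale bound it in the upper and lower tertiles.

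**Figure D3:**
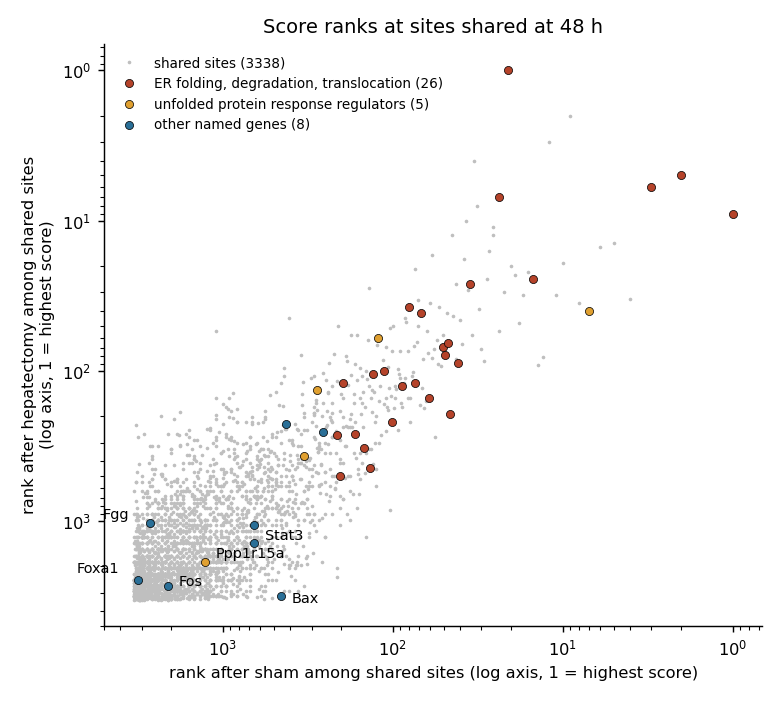
Rank after sham (x axis) against rank after hepatectomy (y axis) of the 3338 shared sites, both log axes with rank 1 at the upper right, grey for all sites and coloured for sites of named genes. ER genes gather at the upper right, Fgg lies above the diagonal and Bax far below it.

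The share found in libraries not used to define these classes differed between the classes, which also differed in rank. Sites at least 25 points higher after hepatectomy overlapped a basal peak in 43.9% of cases, those higher after sham in 54.7% and the rest in 59.0%. For the list made 6 h after hepatectomy with XBP1 silenced by a short hairpin RNA, the shares were 57.8%, 74.4% and 69.3%. In the 6 h libraries of both operations, at least 98.9% of each class was found.

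Among sites in the highest 10% of either list, the 5 with the largest gain after hepatectomy were chr9:62891139-62891655 (89.8 points), chr3:89222061-89222855 (85.9), chr16:44154670-44155142 (78.8), chr6:71780733-71781261 (70.9) and chr8:47471748-47473054 (68.4). The first ranked 232 after hepatectomy and 4355 after sham, where its peak was 266 bp wide, the smallest width in that list. In favour of sham the differences were smaller. The first was at chr10:128360286-128360790 (-71.4 points), with rank 4461 after hepatectomy and 326 after sham. It was followed by a wide site on chromosome 17 (-64.6), chr19:7457281-7457905 (-55.1), a site on chromosome 18 (-48.7) and chr5:140865008-140865568 (-48.1). All 10 sites had a peak 6 h after hepatectomy, and 8 of the 10 had one in basal liver. The wide site, chr17:39979810-39985890, was 1 sham peak of 6081 bp, where hepatectomy had peaks covering 1593 bp. It lies where general knowledge of mm9 puts Rn45s, a gene of the ribosomal RNA precursor present in many copies, so reads there cannot be assigned to 1 copy.

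Peaks after hepatectomy were narrower. Over all peaks the median width was 290 bp (quartiles 226 and 390 bp) after hepatectomy and 379 bp (309 and 474 bp) after sham. The smallest width was 190 bp and 266 bp, so the lists did not share the same lower limit. At the 3274 sites with 1 peak in each list the medians were 362 and 405 bp, and the median log2 ratio of hepatectomy to sham width was -0.165 (quartiles -0.497 and 0.135), a fold of 0.892. The hepatectomy peak was the narrower at 2089 of these sites (63.8%), the wider at 1177 and equal at 8. The median ratio was -0.0651 in the upper tertile of ranks, -0.185 in the middle and -0.294 in the lower, so the difference was least at the strongest sites. Width moved with rank. The median ratio was 0.154 at sites ranked at least 25 points higher after hepatectomy, -0.166 at those within 25 points and -0.561 at those higher after sham. Both peaks were centred alike, with a median distance of 43.5 bp between midpoints and 84.2% of sites within 100 bp. The part of the lower width limits in these differences was not tested.

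**Figure D4:**
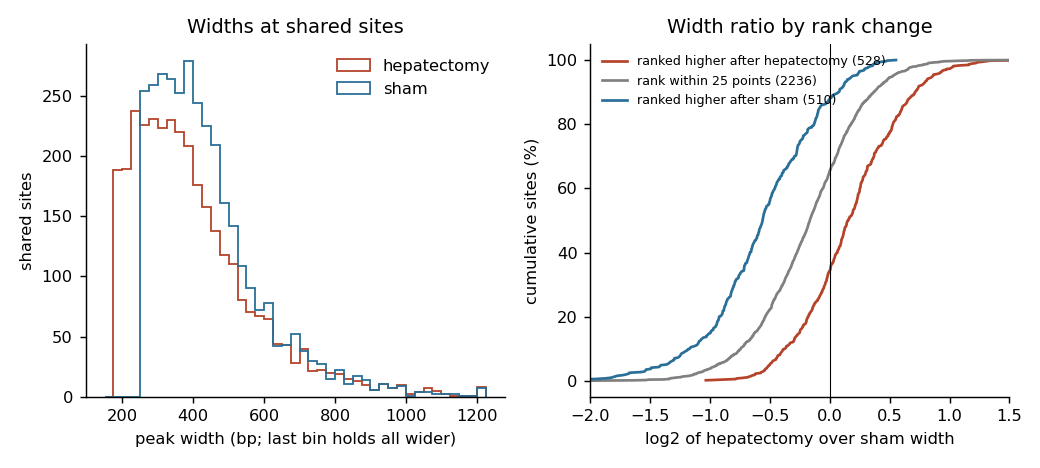
Left, number of shared sites (y axis) by peak width in bp (x axis) after hepatectomy (red) and sham (blue), with medians of 362 and 405 bp. Right, cumulative percent of sites (y axis) by log2 of hepatectomy over sham width (x axis), where sites ranked higher after sham lie to the left (median -0.561) and those ranked higher after hepatectomy to the right (median 0.154).

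Peaks without a counterpart were weaker and narrower than shared ones in both lists. The 3818 such peaks after hepatectomy had a median rank of 4461 and a median width of 253 bp, against 2086 and 360 bp for shared peaks. The 1273 after sham had a median rank of 3096 and width of 323 bp, against 1835 and 408 bp. Those of the hepatectomy list lay at a median of 61.3 kb from the nearest sham peak, 5.55% within 1 kb and 38.6% beyond 100 kb. Those of the sham list lay at a median of 32.7 kb from the nearest hepatectomy peak, 9.9% within 1 kb and 23.6% beyond 100 kb. The hepatectomy list is the longer, which shortens distances to it, so these distances are not a like comparison.

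The strongest peak found after hepatectomy and not after sham lay at chr12:77374955-77375690 (rank 141, 736 bp), 18460 bp from the nearest sham peak. It was followed by chr2:119912990-119913477 (rank 147), chr6:29609791-29610289 (191), chr8:24318905-24319575 (274) and chr5:31121099-31121659 (298). All 5 were also found 6 h after either operation and 4 in basal liver. The strongest found after sham only were chr17:66472640-66473088 (rank 342) and chr17:57136349-57136811 (345), then chr2:3630451-3630953 (530), chr8:3500252-3500729 (532) and chr9:42072247-42072683 (552). These 5 were found 6 h after either operation too, and 4 had a basal peak.

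Most unmatched peaks were seen in other libraries. Of the 3818 after hepatectomy, 93.2% (92.3 to 94.0%) overlapped a peak of at least 1 of the 6 h libraries: 3029 in both, 178 only 6 h after hepatectomy and 351 only 6 h after sham. The other 260 of the 3818 (6.81%) were found in neither. Under a rule of 50% mutual overlap 4205 hepatectomy peaks were unmatched, and 58.1% of those were found at 6 h. Of the 1273 after sham, 97.9% were found at 6 h, 1104 of them in both, and 27 (2.12%) in neither. The 6 h lists held 22071 and 23087 peaks, and such long lists overlap more. Basal liver, with 2482 peaks, held 8.2% (7.35 to 9.11%) of the unmatched hepatectomy peaks and 55.2% (53.5 to 56.9%) of the shared ones. The silenced list made 6 h after hepatectomy overlapped 20.5% of the unmatched hepatectomy peaks and 67.6% of the shared ones, and 25.4% of the unmatched sham peaks. The unsilenced list of that time overlapped 84.0% and 99.0% of the same hepatectomy peaks, and 92.1% of the unmatched sham peaks. The silenced list held only 4325 peaks against 22071, and a shorter list overlaps fewer peaks of any kind. The part of silencing in these lower shares was not tested.

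**Figure D5:**
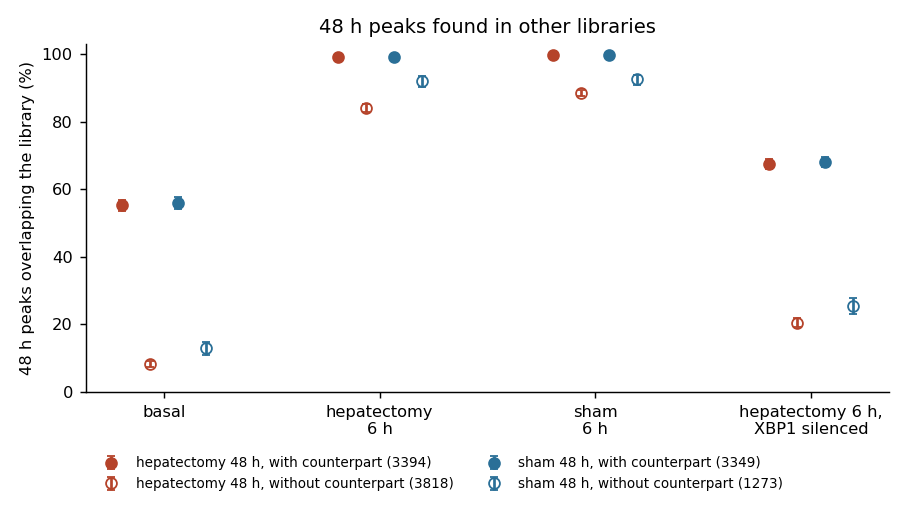
Share of 48 h peaks that overlap a peak of another library (y axis, percent, 95% Clopper-Pearson bars) for basal, 6 h hepatectomy, 6 h sham and silenced 6 h hepatectomy liver (x axis), filled for peaks with a counterpart in the other 48 h list and open for those without. Open points lie below filled ones in each library, at 8.2% against 55.2% in basal liver and 20.5% against 67.6% in the silenced library for hepatectomy.

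Peaks of the hepatectomy list lay closer together, but not at equal numbers of peaks. A peak was counted as clustered where the nearest peak of its own list was within 10 kb. That was so for 29.4% of peaks after hepatectomy (28.3 to 30.4%) and 20.9% after sham (19.7 to 22.1%). Among the 4622 highest-scoring hepatectomy peaks it was 19.5% (18.4 to 20.7%), beside 20.9% for the sham list of that length. Neighbouring peaks count for each other and are not independent, so these intervals do not serve to compare the lists. Runs of at least 3 peaks numbered 188 after hepatectomy, 59 at equal numbers, and 68 after sham. The longest run was in the sham list, with 7 peaks at chr10:79603988-79636221, where hepatectomy had 5. A run of 5 sham peaks at chr7:52712454-52722420 ended with the Bax start peak, and hepatectomy had 3 peaks there. Of the 5045 windows of 100 kb with any peak, 2835 had peaks of both lists, 1741 of hepatectomy only and 469 of sham only. These counts are not at equal numbers of peaks, and the longer hepatectomy list reaches more windows. The densest windows after hepatectomy began at 66.4 Mb and 135.4 Mb of chromosome 5, with 8 peaks each against 5 and 3 after sham, and at 81.6 Mb of chromosome 15, with 7 against 5. After sham they began at 120.4 Mb of chromosome 11, which holds the P4hb peak (8 peaks against 6 after hepatectomy), at 129.1 Mb of chromosome 8 (8 against 5), and at 79.6 Mb of chromosome 10 (7 against 5).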

How the data were processed

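The deposited files hold 1 list of peaks for each library. The submitters' processing notes name Bowtie2, MACS 1.4.2 and the build mm9. The settings and any use of the input library are not given in the sources. The score the authors deposited with each peak was read as −log10 p, judging by the values, and this reading was not checked. The score was used only to rank or filter peaks within a list, apart from counts of peaks, and alternatives, at an equal score in both lists. Overlapping peaks of both 48 h lists were joined into sites, and a site took its highest score. All coordinates of peaks are 1-based mm9. Members, gene lists and the rule for named sites were chosen with earlier results of these data known. That rule took all genes of the lists, the 10 peaks of best rank in both lists, the 5 highest without a counterpart, the 5 largest rank differences each way in the highest 10% of either list, and the 3 densest 100 kb windows. Some are given in counts only.

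Gene starts in mm9 came from general knowledge, rounded to 100 bp, and some were written down with the peaks in view. Their spacing was therefore compared by hand with the RefSeq gene table of GRCm38, and no coordinate was converted. Sec23b, whose spacing differed, and Manf, which had no neighbour to compare, were left out. Srp54b, Ttr and Egr1 had no mm9 start assigned either, so their peaks were not looked up. Of 77 genes, 60 were placed. A peak was given to a gene by position, and a neighbouring gene may share it. Marker loci of other liver cell types were not analysed here, so the makeup of the tissue was not checked. Hepatocyte genes were placed at 7 of 10.

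The scripts used pandas 2.3.3, NumPy 2.4.6 and SciPy 1.17.1 under Python 3.11.15, with matplotlib 3.10.9 for plots. Overlaps were checked on simulated lists and with bedtools 2.31.1. Alternatives changed the overlap rule, the score minimum, list length, peak set, rank difference, gap and window.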

Additional observations from a re-analysis of the deposited data

Results flagged for a closer look

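Hepatectomy and sham stood in a different order at 48 h and at 6 h for a pair of measures. Hepatectomy peaks numbered, relative to sham peaks, 1.56 at 48 h and 0.956 at 6 h. For peaks with a score of at least 20 the order was the opposite, 0.961 at 48 h and 1.23 at 6 h, although an equal score may not mark equal strength in both lists. The median log2 ratio of widths at sites with 1 peak in each list was -0.165 at 48 h and 0.0457 at 6 h. With 1 library for each operation and time, neither difference between times was tested. Depth may differ between the libraries, and its part in both was not tested.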

How the results depend on the processing

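Of 60 alternative values, 32 stayed within the tolerance set for them, 27 moved and 1 changed direction. The direction changed for the ratio of peak numbers, 1.56 over all peaks, which was 1.37 with a score of at least 10 and 0.961 with a score of at least 20 (both added after seeing the data). The shares overlapped, 47.1% of hepatectomy and 72.5% of sham peaks, became 41.7% and 65.1% when 50% of both peaks had to overlap, 49.8% and 68.1% with a score of at least 10, and 57.9% and 57.8% with equal numbers of peaks. A rank difference of at least 40 points left 235 sites higher after hepatectomy and 221 after sham, and one of at least 10 points gave 1029 and 1055. The clustered share of hepatectomy peaks was 20.5% within 5 kb, 41.4% within 20 kb, 19.5% at equal numbers, 21.5% with a score of at least 10 and 24.8% after merging peaks within 500 bp. For sham it was 14.6%, 31.8%, 16.5% and 17.7% in the same order without the equal-number setting. Unmatched hepatectomy and sham peaks found at 6 h were 89.6% and 94.0% by midpoints within 250 bp, 58.1% and 78.6% by 50% overlap of both peaks, and 95.5% and 99.2% with a score of at least 10. With equal numbers the hepatectomy share was 95.5%. Each of these settings also changed which peaks were unmatched. The cause of these movements was not tested beyond what each setting changes. No result can be set against replicates, and the depth of the libraries is unknown.

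No paired analysis was possible because each condition had 1 library.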

Other observations

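The 260 hepatectomy peaks found in neither the sham list nor a 6 h list had a median score of 9.35 and the best of them ranked 539. The 27 such sham peaks had a median score of 9.52 and a best rank of 2032. After hepatectomy with XBP1 silenced, the 48 h list held 102 peaks, and 9 of the 26 ER genes had a peak there within 5 kb of the start. That list overlapped 1.92% of the shared and 0.0262% of the unmatched hepatectomy peaks. The 9 genes included Hspa5 (rank 1), Hsp90b1 (rank 2) and Canx (rank 9).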
